A study of Homo sapiens with 16 samples.

Results

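The genes described here are 10 targets of Wnt signalling and markers of intestinal stem cells: LGR5, ASCL2, AXIN2, CD44, NKD1, RNF43, ZNRF3, NOTUM, LEF1 and TCF7. They were chosen by name, with earlier results of these data known, out of 22395 genes with a probe set of their own on the array. Each probe set used carries only the symbol of its gene. For 9 of the 10 such a probe set was found, all 9 were bright enough on average to be tested, and TCF7 was not analysed here. CD44 had 2 probe sets, and each other gene had 1.

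RNA of DLD1 and HCT116 cells was hybridised to Affymetrix whole-transcript arrays. Both are established lines from human colorectal carcinomas, and of each there were 2 derivatives. The derivative Mut kept the mutant allele of PIK3CA, a catalytic subunit gene of phosphoinositide 3-kinase, with its wild-type allele knocked out, and the derivative WT kept the wild-type allele with its mutant allele knocked out. All cells grew in DMEM with 10% dialyzed fetal bovine serum, with or without glutamine for 24 h, so that 16 arrays covered 8 groups with 2 biological replicates in each. Each genotype of a line is 1 derivative, so a difference between Mut and WT is also a difference between 2 cell populations, and the labels do not say whether replicates were separate experiments. The epithelial markers EPCAM and KRT19 lay at log2 intensities of at least 10.4 and 9.35 on every array. Others were lower or varied: KRT8 lay between 3.62 and 5.39 and CDH17 between 1.73 and 9.52. Of 10 epithelial markers 1 was below the median of the probe sets with 1 gene symbol in each HCT116 group, and 0 were in the DLD1 groups. The median of all probe sets was between 1.83 and 1.89. Over 7 fibroblast markers the mean of an array lay between 1.27 and 1.56, over 7 leukocyte markers between 1.66 and 2.33, and 1 gene of each list was bright enough to be tested. DCN and PTPRC stayed at or below 1.09 and 1.25. COL1A1 (2.28 to 3.81) and the lysosomal protein gene CD68 (4.53 to 7.78) were higher on every array, and CD14 reached 4.0. On glutamine withdrawal CD68 rose in DLD1 WT (0.59 ± 0.12), HCT116 Mut (1.2 ± 0.12) and HCT116 WT cells (0.96 ± 0.12; limma, adjusted p = 0.00379, 3.25e-05 and 0.000285), and its part in the results was not tested. Replicates of a group differed by a median of 0.14 to 0.17 on the log2 scale. A lower level on an array cannot separate fewer cells that express a gene from less RNA per cell.

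Wnt ligands stabilise beta-catenin, which enters the nucleus and activates genes together with DNA-binding factors of the TCF/LEF family. At the base of the intestinal crypt this signal maintains stem cells that carry LGR5, and in most colorectal cancers it is switched on by mutation. DLD1 cells carry a truncated APC, a scaffold of the complex that degrades beta-catenin, and HCT116 cells carry a mutation that stabilises beta-catenin itself. Several of the genes below are both targets and brakes of the pathway.

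The RefSeq promoter table (GRCh38.p14) held entries for 4 of the 10 genes, LEF1, TCF7, CD44 and RNF43. The windows of LEF1, CD44 and RNF43 are shown because these genes were measured and fell together in DLD1 cells. Each window has 250 bases before and 50 after an annotated start and is written from 5′ to 3′ on the gene's strand, with capitals for the E-box CANNTG, the sequence class bound by bHLH factors such as ASCL2. They lie at chr4:108166252-108166551 on the minus strand for LEF1 and chr11:35138921-35139220 on the plus strand for CD44. The starts of RNF43 lie at chr17:58417485-58417784 and chr17:58402672-58402971 on the minus strand.
LEF1: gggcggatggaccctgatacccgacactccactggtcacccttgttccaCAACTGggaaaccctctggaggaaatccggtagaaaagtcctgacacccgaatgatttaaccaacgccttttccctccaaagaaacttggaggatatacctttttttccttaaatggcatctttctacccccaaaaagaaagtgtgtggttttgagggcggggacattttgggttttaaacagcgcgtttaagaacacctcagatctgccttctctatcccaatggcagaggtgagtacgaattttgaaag
CD44: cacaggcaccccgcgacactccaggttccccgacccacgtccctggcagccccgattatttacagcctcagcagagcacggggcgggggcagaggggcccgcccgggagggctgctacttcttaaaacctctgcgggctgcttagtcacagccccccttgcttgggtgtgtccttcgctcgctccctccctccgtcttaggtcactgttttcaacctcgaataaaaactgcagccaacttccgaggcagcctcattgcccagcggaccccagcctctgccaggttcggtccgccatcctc
RNF43, first start: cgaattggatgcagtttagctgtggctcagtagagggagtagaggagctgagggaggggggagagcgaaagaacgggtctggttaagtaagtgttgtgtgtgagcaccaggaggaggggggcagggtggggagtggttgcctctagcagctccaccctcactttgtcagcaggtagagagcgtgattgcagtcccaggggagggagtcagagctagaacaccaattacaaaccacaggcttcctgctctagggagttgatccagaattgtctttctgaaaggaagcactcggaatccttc
RNF43, second start: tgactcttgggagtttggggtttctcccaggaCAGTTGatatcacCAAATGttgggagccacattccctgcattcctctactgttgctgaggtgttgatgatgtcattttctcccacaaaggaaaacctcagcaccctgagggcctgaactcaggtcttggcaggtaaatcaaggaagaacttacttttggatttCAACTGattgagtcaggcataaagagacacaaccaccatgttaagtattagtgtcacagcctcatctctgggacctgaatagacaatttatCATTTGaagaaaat
The TCF/LEF motifs CTTTGAT and CTTTGAA, searched on both strands, had 0 exact matches in these 4 windows, against 2.62% and 4.43% of the 35116 windows in the table that hold them. The E-box CANNTG, which overlaps neither motif, occurred 1 time in LEF1, 0 times in CD44 and 0 and 4 times at the starts of RNF43, and 68.7% of all windows hold it. No match says only that these letters are not in these windows.

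With glutamine present the lines differed in every measured gene of the set. LGR5, ASCL2, LEF1, AXIN2, RNF43, ZNRF3 and NKD1 were higher in DLD1, and CD44 and NOTUM were higher in HCT116. The 7 genes higher in DLD1 and 2 higher in HCT116 (limma, adjusted p at most 0.000559, 4 against 4 arrays) stand beside 24.5% and 22.5% of all 15676 tested genes called in these directions. The mean log2 intensity was 8.44 in DLD1 and 2.18 in HCT116 for LGR5 (difference 6.26 ± 0.22, SE), 6.48 and 2.40 for ASCL2 (4.08 ± 0.14) and 6.04 and 2.18 for LEF1 (3.85 ± 0.21). No fold is given for these 3 genes, since their HCT116 levels lay close to the array medians. AXIN2 was 12.2-fold higher in DLD1 (3.61 ± 0.15), RNF43 5.63-fold higher (2.49 ± 0.09), ZNRF3 2.77-fold (1.47 ± 0.12) and NKD1 2.46-fold (1.30 ± 0.22). CD44 was 6.0-fold lower in DLD1 (-2.58 ± 0.11). NOTUM was also lower there (-1.23 ± 0.16), without a fold since its DLD1 mean of 2.80 was not far above the array medians. In HCT116 LGR5 lay between 1.71 and 2.89, ASCL2 between 2.16 and 2.69 and LEF1 between 1.78 and 2.52 on the 8 arrays. A limit on further falls from such levels was not tested.

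**Figure D1:**
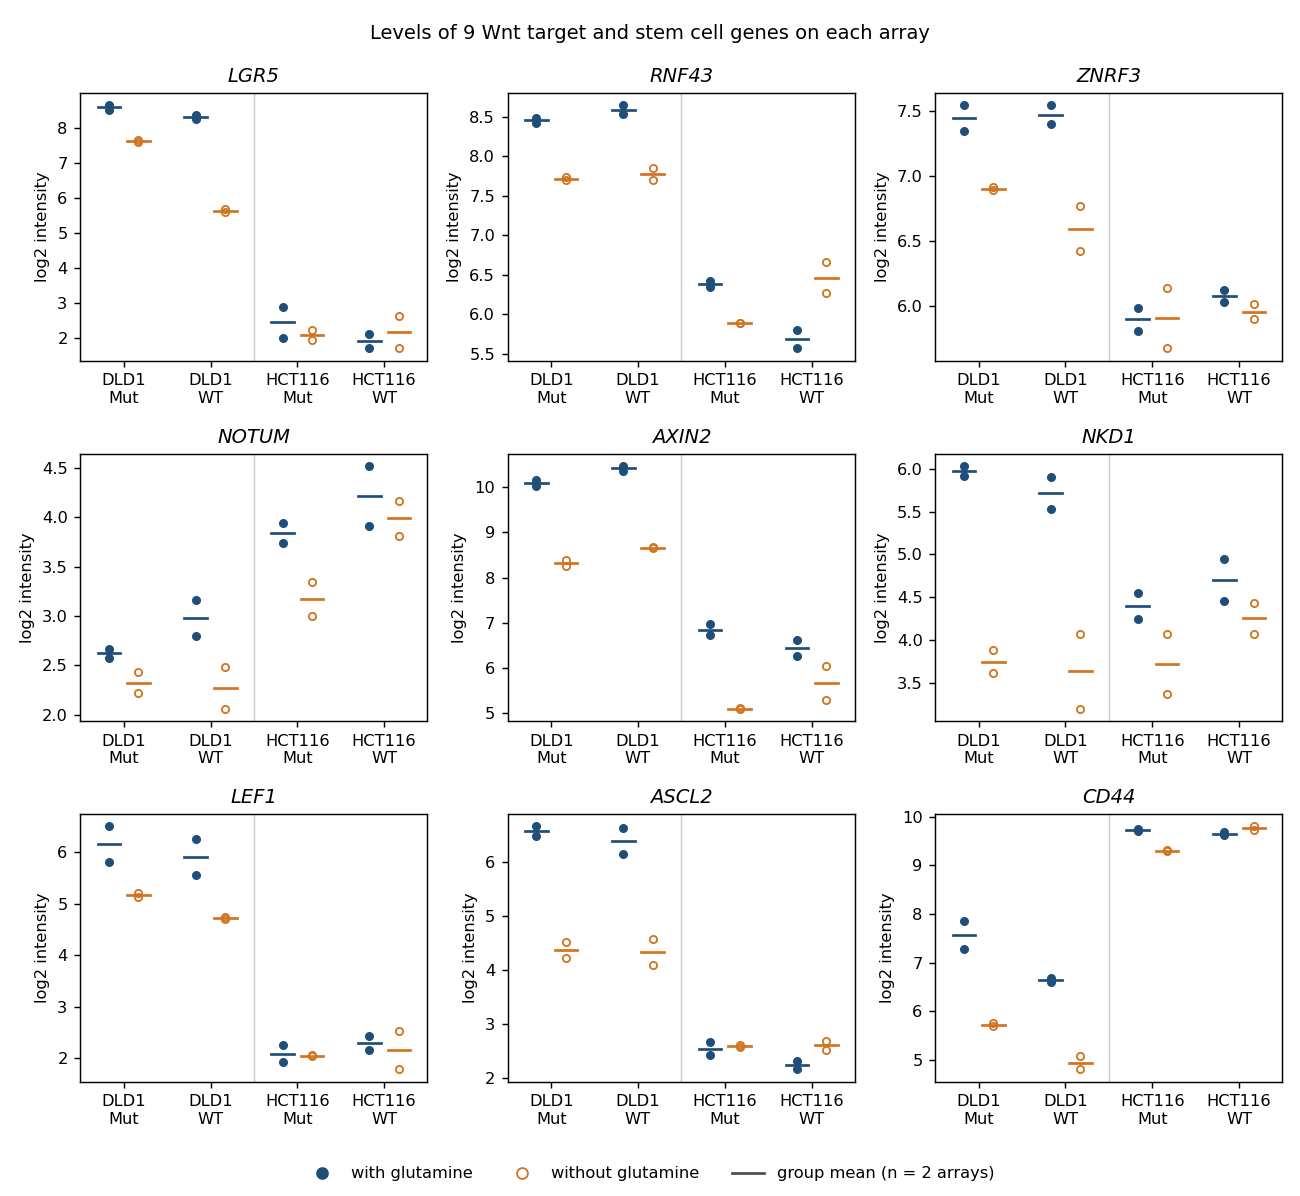
Log2 intensity (vertical axis, a separate scale per panel) of the 9 measured genes in the 4 derivatives, with 1 point per array and a bar at the mean of 2 arrays. In the DLD1 derivatives the points without glutamine lie below those with glutamine for every gene, while in HCT116 only AXIN2 and NKD1 show this in both derivatives and RNF43 rises in WT cells.

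By the brightest probe set of each gene, glutamine withdrawal lowered nearly the whole set in DLD1 and few of its genes in HCT116. The dimmer probe set of CD44 fell in HCT116 Mut (-1.14 ± 0.23) and WT cells (-1.62 ± 0.23). LGR5, ASCL2 and LEF1 were near the array medians in HCT116, and the part of these levels in the counts was not tested. In DLD1 Mut cells 8 of the 9 genes fell and 0 rose (limma), where 16.8% of all tested genes were called in each direction. In DLD1 WT cells 9 fell and 0 rose, against 13% of tested genes lower and 14% higher. In HCT116 Mut cells 3 fell and 0 rose, against 16.5% lower and 16.4% higher. In HCT116 WT cells 1 fell and 1 rose, against 10.1% lower and 10.3% higher. Leaving out glutamine-free DLD1 Mut replicate 1 or 2 lowered the count there from 8 to 5. The count in HCT116 Mut cells was 1 when replicate 1 with glutamine, or either glutamine-free replicate, was left out, and in HCT116 WT cells it was 1 when replicate 1 with glutamine or glutamine-free replicate 2 was. The median log2 change of the 9 genes was -0.99 in DLD1 Mut, -1.69 in DLD1 WT, -0.42 in HCT116 Mut and -0.12 in HCT116 WT cells. Over all tested genes it was -0.027, 0.011, -0.0032 and 0.0093. Averaged over the derivatives all 9 genes fell, against 23.5% of tested genes lower and 24.3% higher, and each of these calls held with any 1 array left out.

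**Figure D2:**
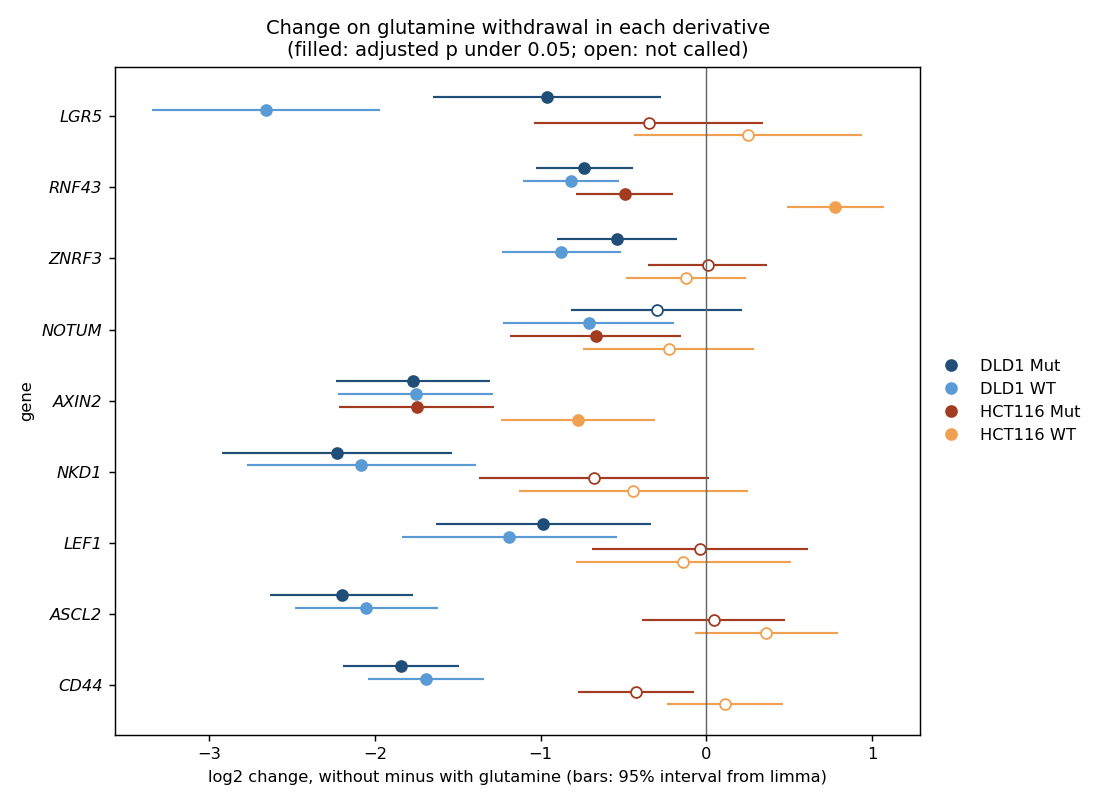
Log2 change on glutamine withdrawal (horizontal axis) for each of the 9 measured genes (vertical axis) in the 4 derivatives, with 95% intervals from limma and open points for changes that were not called. AXIN2 lies below 0 in all 4 derivatives, from -1.77 to -0.78. LGR5, NKD1, ASCL2, LEF1, ZNRF3 and the brighter probe set of CD44 have filled points in DLD1 alone.

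LGR5, the receptor for R-spondins that marks crypt stem cells, fell in DLD1 and most in the WT derivative. Its log2 intensities were 8.52 and 8.65 with and 7.59 and 7.65 without glutamine in DLD1 Mut cells, and 8.24 and 8.36 with and 5.59 and 5.70 without it in DLD1 WT cells. Arrays with and without glutamine did not overlap in either. The change was -2.66 ± 0.31 in WT cells, a 6.32-fold fall (limma, adjusted p = 0.000142), and -0.96 ± 0.31 in Mut cells (adjusted p = 0.0351). The Mut call was lost when any 1 of the 4 DLD1 Mut arrays was left out, with changes from -1.03 to -0.90 and adjusted p from 0.0922 to 0.136. Without glutamine the Mut level of LGR5 in DLD1 was 3.95-fold that of WT (1.98 ± 0.31, adjusted p = 0.00301), and with glutamine it was not called (0.29 ± 0.31, 95% interval -0.40 to 0.97). The difference between the 2 responses was 1.70 ± 0.44 (95% interval 0.72 to 2.67) and did not pass over all genes (adjusted p = 0.103). In HCT116 cells LGR5 was at 2.89 and 2.01 with and 2.24 and 1.96 without glutamine in Mut, and 2.13 and 1.71 with and 1.71 and 2.63 without it in WT. These arrays overlapped and neither change was called (-0.35 ± 0.31 and 0.25 ± 0.31).

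RNF43 and ZNRF3 are related membrane ubiquitin ligases that remove Wnt receptors from the cell surface, a brake that R-spondins and LGR5 release. RNF43 was at 8.49 and 8.42 with and 7.74 and 7.70 without glutamine in DLD1 Mut cells, and at 8.65 and 8.54 with and 7.85 and 7.70 without it in DLD1 WT cells. In HCT116 it was at 6.42 and 6.34 with and 5.88 and 5.89 without glutamine in Mut cells, but at 5.57 and 5.80 with and 6.66 and 6.26 without it in WT cells. The groups with and without glutamine were separate in all 4 derivatives, and HCT116 WT cells moved the other way. RNF43 fell by 0.74 ± 0.13 and 0.82 ± 0.13 in DLD1 Mut and WT cells (limma, adjusted p = 0.00143 and 0.0011) and by 0.49 ± 0.13 in HCT116 Mut cells (adjusted p = 0.0146). In HCT116 WT cells it rose 1.72-fold (0.78 ± 0.13, adjusted p = 0.0021), a call kept with any 1 array left out and in every other setting tried. The responses of the HCT116 derivatives differed by -1.27 ± 0.19 (Mut minus WT, adjusted p = 0.0029), the 1 gene of the set called in this comparison, where 4.75% of tested genes were called lower and 4.75% higher. Its order between the HCT116 derivatives turned over: with glutamine Mut was 0.70 ± 0.13 above WT (adjusted p = 0.0186) and without it 0.58 below (-0.58 ± 0.13, adjusted p = 0.00917). The fall in HCT116 Mut cells lost its call when replicate 1 with glutamine was left out (adjusted p = 0.0754), and when glutamine-free replicate 1 or 2 was (adjusted p = 0.0603 and 0.0596). The Mut excess with glutamine lost its call without HCT116 Mut replicate 1 or 2 or WT replicate 1 with glutamine (adjusted p = 0.0831, 0.0799 and 0.139). The difference without glutamine was -0.38 and not called without HCT116 WT replicate 1 (adjusted p = 0.0731). When the HCT116 arrays were fitted alone, the fall in Mut cells (adjusted p = 0.0639) and the difference between the derivatives with and without glutamine (adjusted p = 0.138 and 0.0529) were not called.

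ZNRF3 was at 7.34 and 7.54 with and 6.92 and 6.89 without glutamine in DLD1 Mut cells, and at 7.40 and 7.54 with and 6.77 and 6.42 without it in DLD1 WT cells. It fell by 0.88 ± 0.16 in WT (limma, adjusted p = 0.00255) and by 0.54 ± 0.16 in Mut cells (adjusted p = 0.0257). The Mut call was lost when DLD1 Mut replicate 2 with glutamine was left out (-0.44, adjusted p = 0.151), and when either glutamine-free array was (adjusted p = 0.0846 and 0.0984). In HCT116 its 8 arrays spread from 5.67 to 6.14, and the changes of 0.0083 ± 0.16 in Mut and -0.12 ± 0.16 in WT cells were not called.

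Of the inhibitors that act inside or outside the cell, AXIN2 fell in every derivative. AXIN2 is a scaffold of the beta-catenin destruction complex and among the most direct readouts of the pathway. It was at 10.16 and 10.02 with and 8.39 and 8.25 without glutamine in DLD1 Mut cells, and at 10.36 and 10.48 with and 8.67 and 8.66 without it in DLD1 WT cells. In HCT116 it was at 6.97 and 6.73 with and 5.11 and 5.09 without glutamine in Mut cells, and at 6.62 and 6.26 with and 6.05 and 5.28 without it in WT cells. No pair of groups overlapped, and the 2 HCT116 WT arrays without glutamine lay far apart. AXIN2 fell 3.41-fold in DLD1 Mut (-1.77 ± 0.21), 3.38-fold in DLD1 WT (-1.76 ± 0.21), 3.36-fold in HCT116 Mut (-1.75 ± 0.21) and 1.71-fold in HCT116 WT cells (-0.78 ± 0.21; limma, adjusted p = 0.000104, 0.000169, 0.000127 and 0.025). The HCT116 WT call was lost without its first array with glutamine, replicate 1 (-0.60, adjusted p = 0.160), and without replicate 2 of the glutamine-free group (-0.39, adjusted p = 0.157). A fit of the HCT116 arrays alone did not call it either (adjusted p = 0.106). The response of AXIN2 differed between the HCT116 derivatives by -0.97 ± 0.30, which did not pass (adjusted p = 0.0682) but did without HCT116 WT replicate 2 without glutamine (-1.36, adjusted p = 0.00832). It also passed with the replicate number as a block (adjusted p = 0.0489).

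NKD1, an intracellular inhibitor that binds Dishevelled, fell in both DLD1 derivatives, to levels that overlapped those of HCT116 Mut cells without glutamine. It was at 5.92 and 6.04 with and 3.88 and 3.61 without glutamine in DLD1 Mut cells, and at 5.53 and 5.91 with and 4.08 and 3.20 without it in DLD1 WT cells. The falls were 4.69-fold in Mut (-2.23 ± 0.31, limma, adjusted p = 0.000301) and 4.24-fold in WT cells (-2.08 ± 0.31, adjusted p = 0.000703). In HCT116 NKD1 was at 4.25 and 4.55 with and 3.37 and 4.07 without glutamine in Mut, and 4.45 and 4.94 with and 4.44 and 4.08 without it in WT cells. The changes of -0.68 ± 0.31 and -0.44 ± 0.31 were not called (95% intervals -1.37 to 0.013 and -1.13 to 0.25), although the arrays did not overlap.

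NOTUM, a secreted enzyme that removes the lipid from Wnt ligands, was called in 2 derivatives, close to the threshold in each. It was at 2.67 and 2.58 with and 2.22 and 2.43 without glutamine in DLD1 Mut cells, and at 2.79 and 3.17 with and 2.06 and 2.48 without it in DLD1 WT cells. In HCT116 it was at 3.94 and 3.74 with and 3.0 and 3.34 without glutamine in Mut cells, and at 3.91 and 4.52 with and 4.17 and 3.81 without it in WT cells. The groups overlapped in HCT116 WT cells and were separate in the other 3 derivatives. NOTUM fell by 0.71 ± 0.23 in DLD1 WT (limma, adjusted p = 0.045) and 0.67 ± 0.23 in HCT116 Mut cells (adjusted p = 0.0492). Its changes in DLD1 Mut (-0.30 ± 0.23) and HCT116 WT cells (-0.23 ± 0.23) did not pass. The DLD1 WT call was lost in 9 of 16 cases of 1 array left out: any array of DLD1 Mut, either of DLD1 WT with glutamine, DLD1 WT replicate 1 without it, or either of HCT116 Mut with it (-0.90 to -0.50, adjusted p up to 0.257). The HCT116 Mut call was lost in 12 of 16 cases: any array of DLD1 Mut or HCT116 Mut, or either of DLD1 WT with or HCT116 WT without glutamine (-0.84 to -0.50, adjusted p up to 0.246). Without glutamine NOTUM was lower in HCT116 Mut than WT cells (-0.82 ± 0.23, adjusted p = 0.0262), a call lost without replicate 1 of either derivative (-0.65 and -0.64, adjusted p = 0.153 and 0.162). With the HCT116 arrays fitted alone neither the fall in Mut cells (adjusted p = 0.0928) nor this difference (adjusted p = 0.0664) was called. The DLD1 WT call was also lost with no filter, log2(value + 1) and trend and robust moderation (adjusted p = 0.0601, 0.0529 and 0.0531). The fall in HCT116 Mut cells was also not called with no filter, arrays scaled to the same median and trend and robust moderation (adjusted p = 0.0654, 0.0553 and 0.0611).

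Among the transcription factors, ASCL2 and LEF1 fell in DLD1 and were near the array median in HCT116. ASCL2, the basic helix-loop-helix factor that controls crypt stem cell identity, was at 6.66 and 6.49 with and 4.51 and 4.23 without glutamine in DLD1 Mut cells, and at 6.63 and 6.14 with and 4.58 and 4.09 without it in DLD1 WT cells. It fell 4.60-fold in Mut (-2.20 ± 0.19, limma, adjusted p = 1.6e-05) and 4.15-fold in WT cells (-2.05 ± 0.19, adjusted p = 4.07e-05). The DLD1 derivatives overlapped in each medium, and their responses differed by -0.15 ± 0.28 (95% interval -0.76 to 0.46). In HCT116 ASCL2 was at 2.67 and 2.43 with and 2.61 and 2.58 without glutamine in Mut, and 2.16 and 2.33 with and 2.69 and 2.53 without it in WT cells. The WT arrays without glutamine lay above those with it, but neither change was called (0.045 ± 0.19 and 0.36 ± 0.19).

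LEF1, which binds DNA with beta-catenin as its partner, was at 6.51 and 5.81 with and 5.14 and 5.21 without glutamine in DLD1 Mut cells. In DLD1 WT cells it was at 5.57 and 6.25 with and 4.70 and 4.74 without it. The arrays with glutamine spread widely, but the groups did not overlap. LEF1 fell by 0.99 ± 0.29 in Mut (limma, adjusted p = 0.024) and by 1.19 ± 0.29 in WT cells (adjusted p = 0.012). The Mut call was lost when its replicate 1 with glutamine was left out (-0.63, adjusted p = 0.194), and when glutamine-free replicate 1 or 2 was (adjusted p = 0.0977 and 0.0767). The WT call was lost when its replicate 2 with glutamine was left out (-0.85, adjusted p = 0.102), and when glutamine-free replicate 1 or 2 was (adjusted p = 0.0595 and 0.0518). In HCT116 the changes of -0.04 ± 0.29 and -0.14 ± 0.29 were not called.

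CD44, a hyaluronan receptor with many splice forms, fell in DLD1 by its brighter probe set and in HCT116 by its dimmer one. The brighter probe set was at 7.29 and 7.85 with and 5.76 and 5.69 without glutamine in DLD1 Mut cells, and at 6.68 and 6.61 with and 5.09 and 4.81 without it in DLD1 WT cells. In HCT116 it was at 9.71 and 9.75 with and 9.31 and 9.29 without glutamine in Mut, and 9.69 and 9.62 with and 9.80 and 9.73 without it in WT cells. It fell 3.59-fold in DLD1 Mut (-1.84 ± 0.16, limma, adjusted p = 1.39e-05) and 3.23-fold in DLD1 WT cells (-1.69 ± 0.16, adjusted p = 3.78e-05). The shifts in HCT116 were -0.42 ± 0.16 in Mut and 0.11 ± 0.16 in WT cells and were not called (adjusted p = 0.0641 and 0.697). The Mut shift was called when DLD1 Mut replicate 1 or 2 with glutamine was left out (adjusted p = 0.0115 for each), with the HCT116 arrays fitted alone (0.02), with trend and robust moderation (0.0197) and among genes above the median level (0.0421). With the mean of both probe sets it was -0.78 (adjusted p = 0.00163). Without glutamine CD44 was at -0.46 ± 0.16 in HCT116 Mut against WT cells, which did not pass (adjusted p = 0.0577) but did without either of those arrays, with HCT116 fitted alone, with trend and robust moderation and among genes above the median level (adjusted p from 0.0109 to 0.037). The brighter probe set was also the 1 feature of the set called between the DLD1 derivatives with glutamine, where 2.6% of tested genes were higher and 3.2% lower in Mut (0.93 ± 0.16, adjusted p = 0.00629). Without glutamine it was again higher in Mut (0.78 ± 0.16, adjusted p = 0.0114), and with LGR5 it made 2 genes called higher, against 4.36% of tested genes higher and 5.91% lower. The first of these calls was lost without DLD1 WT replicate 2 with glutamine (adjusted p = 0.0515). The second was lost without DLD1 Mut replicate 1 or 2 or WT replicate 2 without glutamine (adjusted p = 0.0729, 0.0508 and 0.0929). A fit of the DLD1 arrays alone called neither (adjusted p = 0.061 and 0.0703). The dimmer probe set called neither, at 0.82 with and -0.24 without glutamine (limma, adjusted p = 0.0676 and 0.585). With the mean of both probe sets the second call alone was lost (0.27, adjusted p = 0.284).

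The dimmer probe set of CD44 was at 3.47 and 2.84 with and 1.99 and 2.05 without glutamine in HCT116 Mut cells, and at 3.90 and 3.97 with and 2.64 and 2.00 without it in HCT116 WT cells. In DLD1 it lay between 1.12 and 2.03 on all 8 arrays, around the array medians. Fitted in place of the brighter one it fell in HCT116 Mut (-1.14 ± 0.23, limma, adjusted p = 0.00313) and HCT116 WT cells (-1.62 ± 0.23, adjusted p = 0.000707). No fold is given, since its levels without glutamine lay close to the array medians there too. In DLD1 Mut cells it fell by 0.66 ± 0.23 (adjusted p = 0.0485) and in DLD1 WT cells it was at 0.41 ± 0.23 (adjusted p = 0.232). Which transcripts of CD44 each probe set covers is not given in the sources used here, and the levels of 2 probe sets cannot be set against each other.

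**Figure D3:**
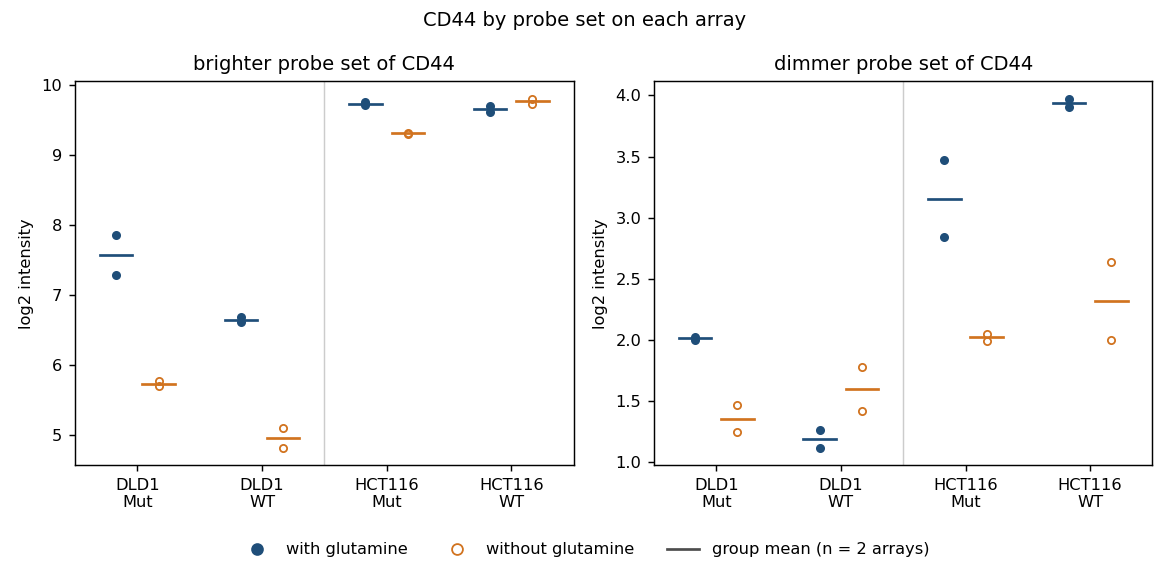
Log2 intensity of the 2 CD44 probe sets (vertical axes on separate scales) in the 4 derivatives, with 1 point per array and bars at the means of 2 arrays. The brighter probe set drops in DLD1, from 7.57 to 5.73 in Mut cells, and the dimmer one in HCT116, from 3.94 to 2.32 in WT cells.

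The responses of the lines were compared directly, averaged over the derivatives of each. In 7 of the 9 genes the change was lower in DLD1 than in HCT116 and in 0 it was higher (limma), where 8.93% of tested genes were called lower and 10% higher. ASCL2 differed most (-2.33 ± 0.19, limma, adjusted p = 8e-05), followed by LGR5 (-1.76 ± 0.31), the brighter probe set of CD44 (-1.61 ± 0.16) and NKD1 (-1.60 ± 0.31). LEF1 (-0.999 ± 0.29), RNF43 (-0.92 ± 0.13) and ZNRF3 (-0.65 ± 0.16) also differed (adjusted p = 0.0377, 0.00105 and 0.019). ASCL2, LGR5 and LEF1 were near the array medians in HCT116 in both media, and the part of these levels in their differences was not tested. With the dimmer probe set the difference of CD44 turned to 1.25 ± 0.23 (adjusted p = 0.00406), and with the mean of both it was -0.18 (adjusted p = 0.430). AXIN2 (-0.50 ± 0.21, adjusted p = 0.13) and NOTUM (-0.06 ± 0.23, adjusted p = 0.898) were not called, with 95% intervals from -0.97 to -0.03 and from -0.57 to 0.46. AXIN2 was called without HCT116 WT replicate 2 without glutamine (-0.69, adjusted p = 0.0107). The call of LEF1 was kept in 4 of 16 cases of 1 array left out, those of HCT116 Mut replicate 2 with glutamine, HCT116 WT replicate 2 without it, DLD1 Mut replicate 2 with it and DLD1 WT replicate 1 with it. In the other 12 cases its change was between -1.07 and -0.81 and its adjusted p between 0.0511 and 0.0804.

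Ordered by level, the 8 groups fell into similar sequences for several genes. For ASCL2, LEF1, LGR5, AXIN2, RNF43 and ZNRF3 the 4 DLD1 groups lay above the 4 HCT116 groups, and within DLD1 both groups with glutamine lay above both without. NKD1 broke this order: DLD1 without glutamine (means 3.75 and 3.64) lay with HCT116 Mut without glutamine (3.72), and these arrays overlapped. The HCT116 groups of LEF1 (2.04 to 2.29) and LGR5 (1.92 to 2.45) each overlapped their neighbour in the order. For NOTUM and the brighter probe set of CD44 the 4 HCT116 groups lay above the 4 DLD1 groups, while within DLD1 both groups with glutamine again lay above both without. CD44 went from 9.76 in HCT116 WT without glutamine to 4.95 in DLD1 WT without it.

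Between Mut and WT cells 1 or 2 of the 9 genes were called in each line and medium. CD44 is taken here by its brighter probe set. With glutamine it was called higher in DLD1 Mut, where 2.6% of tested genes were higher and 3.2% lower. In HCT116 RNF43 was called higher in Mut, where 1.12% were higher and 2.12% lower. Without glutamine LGR5 and CD44 were called higher in DLD1 Mut, where 4.36% of tested genes were higher and 5.91% lower. RNF43 and NOTUM were called lower in HCT116 Mut, where 12.4% were lower and 12.3% higher. The contrast of responses between the genotypes called 0 of 9 genes in DLD1 (limma; 0.255% of tested genes higher and 0.568% lower). At an unadjusted p under 0.05 it called 1, LGR5, which also passed with a trend and robust prior in the moderation (adjusted p = 0.0282). AXIN2 without glutamine was at -0.57 ± 0.21 in HCT116 Mut against WT cells (adjusted p = 0.0764) and was called without HCT116 WT replicate 2 (-0.95, adjusted p = 0.0046).

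By the distance between centred group means, the genes most like the members were found among all tested genes. The distance is the root mean square of the log2 differences over the 8 groups. Nearest to ASCL2 were TLR2 (0.21), IL33 (0.32) and ISM1 (0.33), against a standard deviation of 1.76 for ASCL2 itself over the groups. Nearest to LGR5 were IGFL4 (0.51), CFTR (0.53) and FOXA1 (0.61), with 3.01 for LGR5. For AXIN2 they were ISM1 (0.44), HPGD (0.50) and GAL3ST2 (0.50), with 1.99 for AXIN2. For CD44 they were MDK (0.42), ADGRE2 (0.47) and LAPTM4B (0.51), with 1.96 for CD44. These distances are dominated by the gap between the lines and say nothing of shared control.

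Other genes of the pathway gave a mixed picture on average over the 4 derivatives, where 24.3% of all tested genes rose and 23.5% fell. Among 14 genes of the destruction complex and Dishevelled 9 rose, 0 fell and 5 were not called, with a median of 0.22 against -0.0042 over all tested genes. The tankyrases TNKS (0.84 ± 0.05, limma, adjusted p = 4.61e-07) and TNKS2 (0.55 ± 0.05), which mark axins for degradation, rose most, and both were called in all 4 derivatives. Among 17 Wnt and R-spondin receptor genes 1 rose, FZD6 (0.54 ± 0.06), and 9 fell, with FZD4 (-0.78 ± 0.11) and the LGR5 homologue LGR4 (-0.54 ± 0.17) the largest (median -0.25). LGR4 was at 0.08 ± 0.33 and -0.19 ± 0.33 in DLD1 Mut and WT cells, fell in HCT116 Mut (-1.19 ± 0.33) and was at -0.87 ± 0.33 in HCT116 WT cells, and the difference between the lines did not pass (0.97 ± 0.33, adjusted p = 0.0657). Of 18 ligand and secretion genes 1 rose, WNT9A (0.50 ± 0.14), and 4 fell, WNT10B (-1.01 ± 0.14) and WNT16 (-0.52 ± 0.17) among them (median -0.036). WNT16 rose in DLD1 Mut (1.03 ± 0.34), fell in HCT116 Mut (-2.81 ± 0.34) and was not called in WT cells of either line, a difference between the lines of 2.04 ± 0.34 (adjusted p = 0.00241). WNT9A rose in HCT116 Mut (1.2 ± 0.28) and WT cells (1.18 ± 0.28) and was not called in DLD1, with a difference of -1.38 ± 0.28 (adjusted p = 0.00737). Of 12 nuclear partners 2 rose, the coactivator BCL9L (0.77 ± 0.07) and the corepressor TLE3 (0.28 ± 0.07), and 2 fell, TCF7L2 (-0.41 ± 0.04) and BCL9 (-0.20 ± 0.07). CTNNB1, the gene of beta-catenin, named here after its value was seen, was not called (-0.051 ± 0.041, adjusted p = 0.345). Of 11 other inhibitor genes 0 rose and 3 fell, most of all TNFRSF19, a Wnt target and receptor of the stem cell compartment (-1.42 ± 0.18). TNFRSF19 fell in DLD1 Mut (-2.01 ± 0.35) and WT cells (-2.73 ± 0.35) and was not called in HCT116 (-0.35 ± 0.35 and -0.60 ± 0.35), a difference between the lines of -1.90 ± 0.35 (adjusted p = 0.00445).

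**Figure D4:**
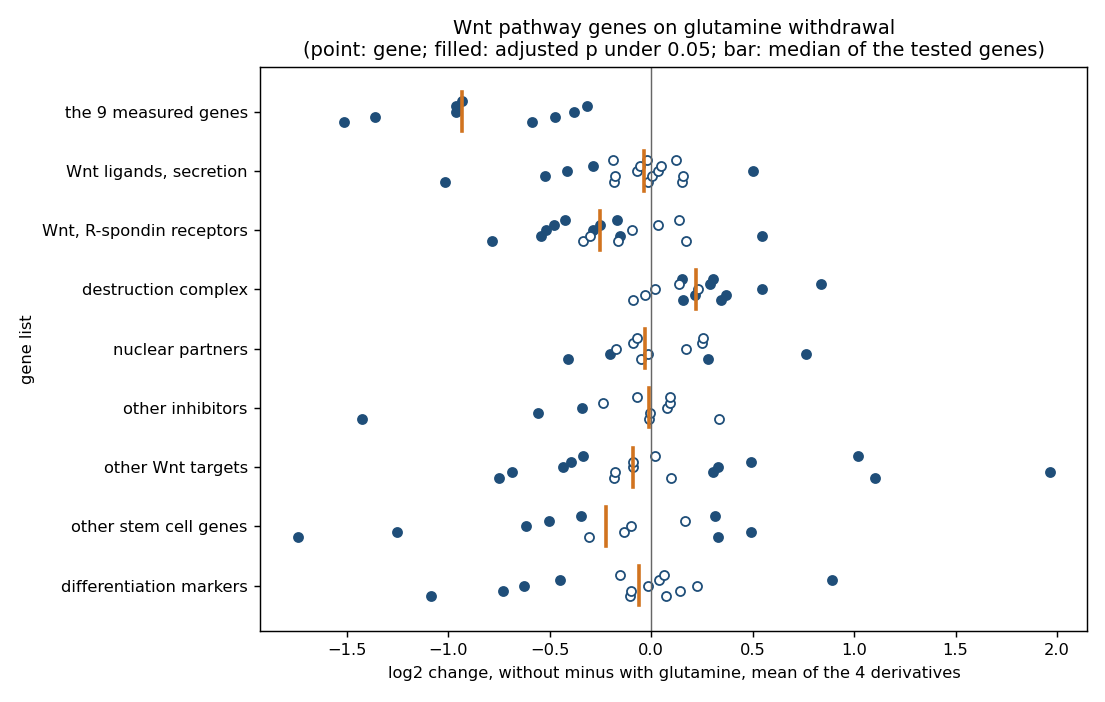
Log2 change on glutamine withdrawal, averaged over the 4 derivatives (horizontal axis), for the tested genes of 9 lists (vertical axis), with filled points for called genes and a bar at each list's median. All 9 measured genes of the set lie below 0 (median -0.93), the destruction complex has its median at 0.22, and other Wnt targets lie on both sides of 0.

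Other Wnt targets of colorectal cells moved in both directions: of 17 tested 6 rose, 5 fell and 6 were not called on average (median -0.088), beside 24.3% of all tested genes higher and 23.5% lower. JUN (1.96 ± 0.05, limma, adjusted p = 3.3e-09) and VEGFA (1.10 ± 0.06), which other pathways also induce, rose most, and BMP4 (-0.75 ± 0.04) and SOX4 (-0.69 ± 0.06) fell most. The fall of BMP4 was largest in HCT116 Mut cells (-2.35 ± 0.09), against -0.0047 ± 0.088 in DLD1 Mut cells. In the comparison of the lines 5 of the 17 had a lower change in DLD1 and 3 a higher one, beside 8.93% and 10% of all tested genes. TIAM1, an activator of the GTPase RAC, fell in DLD1 Mut (-1.63 ± 0.12) and WT cells (-1.21 ± 0.12) and rose in HCT116 Mut (0.52 ± 0.12) and WT cells (0.97 ± 0.12). Its difference between the lines was -2.17 ± 0.12 (adjusted p = 8.17e-06). SP5, a transcription factor directly under Wnt control, fell in DLD1 (-1.10 ± 0.27 and -0.95 ± 0.27) and was not called in HCT116 (0.11 ± 0.27 and 0.21 ± 0.27), and the lines differed by -1.19 ± 0.27 (adjusted p = 0.0125). MYC, named after its values were seen, fell in DLD1 Mut (-0.32 ± 0.09) and WT cells (-0.49 ± 0.09), rose in HCT116 Mut (0.61 ± 0.09) and was not called in HCT116 WT cells (-0.15 ± 0.09).

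Of 12 other intestinal stem cell genes 3 rose and 5 fell on average (median -0.22), beside 24.3% of all tested genes higher and 23.5% lower. The MYC-linked factor CDCA7 (-1.74 ± 0.08, limma, adjusted p = 6.2e-08) fell in all 4 derivatives, from -2.10 to -1.37. The ion transporter SLC12A2 (-1.25 ± 0.06) fell in DLD1 Mut (-1.78 ± 0.11), DLD1 WT (-1.89 ± 0.11) and HCT116 Mut cells (-1.13 ± 0.11) and was not called in HCT116 WT cells (-0.20 ± 0.11). SOX9 (0.49 ± 0.04) and ETS2 (0.33 ± 0.04), which are also among the other Wnt targets, rose.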

How the data were processed

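The authors deposited intensity values, linear by their range, for 53617 probe sets and 16 arrays. Per the labels' protocols, total RNA was labelled by the Affymetrix whole-transcript method; how the authors corrected background and normalized is not stated there. Array medians lay between 3.57 and 3.70, and the log2 of each value was taken with no further normalization. Genes were named from the probe set table of the platform, with 90 symbols updated by Entrez identifier through RefSeq (GRCh38.p14). Probe sets with several symbols (1842) or none (27904) were left out, and the brightest probe set was used per gene, which gave 22395 genes. The 15676 in the upper 70% of mean level entered 1 fit with limma (version 3.58.1, R 4.3.3): 8 group means, 13 contrasts, Benjamini-Hochberg adjustment over all tested genes and a call at adjusted p under 0.05, after a test on simulated data. All contrasts share 1 spread per gene. The number of arrays limits the precision, and p-values measure the spread between these replicates. Errors are limma's SE, folds are 2 to the absolute log2 change, and motifs were matched exactly.

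The members, the lists of related genes and the tests were chosen with earlier results of these data known. Named were all members and both CD44 probe sets. From each other list up to 2 called genes per direction with the largest change on average and between the lines were taken, of which the text gives a part, and for LGR5, ASCL2, AXIN2 and CD44 the 3 nearest genes. Alternatives were no filter or a median filter, quantile or median scaling, log2(value + 1), mean of probe sets, each CD44 probe set, replicate blocks, trend and robust moderation, lines fitted apart, and each array left out.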

Additional observations from a re-analysis of the deposited data

Results flagged for a closer look

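The difference between the lines in the response to glutamine withdrawal was itself tested, and 7 genes passed. The log2 change in DLD1 minus that in HCT116 was -2.33 for ASCL2, -1.76 for LGR5, -1.61 for the brighter probe set of CD44, -1.60 for NKD1, -0.999 for LEF1, -0.92 for RNF43 and -0.65 for ZNRF3. The values for LGR5, ASCL2 and LEF1 go with HCT116 levels between 1.71 and 2.89, near the array medians, and the part of these levels in the differences was not tested.

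The response of RNF43 differed between the HCT116 derivatives by -1.27 (Mut minus WT), the interaction term of the fit: it rose in WT cells and fell in Mut cells.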

How the results depend on the processing

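Of 54 calls of single genes, 39 held under every alternative apart from the dimmer CD44 probe set, leaving out each array included. The fall of CD44 in DLD1 WT cells is among these 39, but that probe set did not call it (limma, adjusted p = 0.232). Of 3028 recomputed values 2919 kept their side of the threshold, 82 lost a call, 22 gained one and 5 changed sign with a call in the reported value, the alternative or both, while 53 uncalled values changed sign and stayed uncalled. The sign changes were all of CD44. With its dimmer probe set CD44 was at 0.41 on withdrawal in DLD1 WT cells, -1.62 in HCT116 WT cells, 1.25 for DLD1 minus HCT116 and -0.24 for Mut minus WT without glutamine in DLD1, and with the mean of its probe sets at -0.75 on withdrawal in HCT116 WT cells.

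Counts of called genes changed by more than 1.5 times as follows. With each line fitted separately 1 gene was called on withdrawal in HCT116 WT cells, 0 for Mut minus WT with glutamine in DLD1 and 0 in HCT116, and 1 without glutamine in each line, which in HCT116 was CD44 and not RNF43 or NOTUM. With the mean of probe sets 1 was called for Mut minus WT without glutamine in DLD1. Trend and robust moderation called 4 for Mut minus WT without glutamine in HCT116, 1 for the interaction in DLD1 and 2 for that in HCT116, and the median filter also called 2 there. With 1 array left out, whatever the size of the change, the counts ranged from 5 to 8 on withdrawal in DLD1 Mut, 7 to 9 in DLD1 WT, 1 to 3 in HCT116 Mut and 1 to 2 in HCT116 WT cells. They ranged from 0 to 1 for Mut minus WT with glutamine in each line, 1 to 2 without it in DLD1, 0 to 3 without it in HCT116 and 1 to 2 for the interaction in HCT116. For these changes the cause was not tested, apart from the fewer arrays.

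No shift shared by same-numbered replicates was seen: over 28 pairs of groups their deviations correlated at -0.04 to 0.03 across genes. These correlations cannot say whether same-numbered replicates were handled together. With replicate number as a block, whether across the 16 arrays or inside a line, 2 genes were called for the interaction in HCT116. The block within each line lost the calls of LGR5 in DLD1 Mut (adjusted p = 0.0566), NOTUM in DLD1 WT (0.0523) and HCT116 Mut (0.0557) and LEF1 between the lines (0.0637). Quantile and median scaling moved the median of all tested genes by at most 0.036. What signal near the array medians, as of LGR5 in HCT116, does to the changes measured there was not tested.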

Other observations

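Of 18 markers of differentiated intestinal epithelium 14 were bright enough to be tested on glutamine withdrawal. Among these 1 rose and 4 fell on average over the derivatives (limma, median log2 change -0.058), beside 24.3% and 23.5% of all tested genes. Most were dim: in each group 11 to 14 of the 18 lay below the median of the probe sets with 1 gene symbol. KLF4, a factor of differentiating cells, rose (0.89 ± 0.13, adjusted p = 0.000154) and was called in all 4 derivatives. Carbonic anhydrase CA2 (-1.08 ± 0.07) and the keratin KRT20 (-0.73 ± 0.12) fell, KRT20 by 1.5 ± 0.24 in DLD1 WT cells. The intestinal transcription factor CDX2 fell in DLD1 Mut (-0.92 ± 0.10) and WT cells (-1.20 ± 0.10) and was not called in HCT116 (-0.15 ± 0.10 and -0.23 ± 0.10). The lines differed in its response by -0.87 ± 0.10 (adjusted p = 0.00035).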
